A study of Mus musculus with 12 samples.

Results

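Motile cilia are built on an axoneme, a ring of microtubules along which dynein arms slide to bend the cilium, with radial spokes that relay signals from a central pair. In the brain they are carried in tufts by ependymal cells, the layer that lines the ventricles next to the hippocampus and moves cerebrospinal fluid. The transcription factor Foxj1, with factors of the Rfx family, switches on the genes of the motile axoneme in such cells.

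A set of 7 genes of the motile cilium was examined in dissected CA1 tissue of the mouse hippocampus, out of 48709 gene IDs counted. Dnah1 encodes a heavy chain of axonemal dynein, and Foxj1, Fam183b, Ccdc153, Tmem212, Rsph1 and Dynlrb2 are known from ciliated and ependymal cells. The members were chosen by their measured expression in MI against Sham, Dnah1 being lower in MI and the other 6 being the ependymal genes set beside it, so that difference is given below as a description without a test. What was asked is whether Dnah1 goes up and down with the 6 ependymal genes from library to library.

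The MI group held 6 libraries from mice with myocardial infarction produced by coronary artery ligation, and the Sham group held 6 libraries from mice that had the same kind of surgery without ligation. The labels give no strain, age, sex or time after surgery, and do not say that each library is a separate animal, so p-values reflect only how these libraries vary. Polyadenylated RNA was read as single-end reads. Totals ran from 20764133 to 35643127 counts per library. Xist, the RNA that coats the inactive X, outnumbered reads of Y-linked genes in 3 MI libraries (2, 5 and 6) and 3 Sham libraries (4, 5 and 6), while Y-linked reads outnumbered Xist in the other 6. These are called the Xist set and the Y set, and each holds 3 libraries per group. CA1 pyramidal markers summed to 1371 to 1691 CPM (counts scaled to library size) in MI and 994 to 1952 CPM in Sham. In such bulk tissue fewer cells of a type and less RNA per cell cannot be told apart.

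Promoter sequences are shown for Dnah1 and for the 4 ependymal genes found in the RefSeq promoter table (GRCm38.p6), because a shared element would be visible there. Each is a 300-base window around the annotated start, 5′ to 3′ on the gene's strand, and capitals mark matches on either strand to GTTNCC, the short arm of the X-box bound by Rfx factors, or to the forkhead motif GTAAACA.
Dnah1 (chr14:31323847-31324146, minus strand): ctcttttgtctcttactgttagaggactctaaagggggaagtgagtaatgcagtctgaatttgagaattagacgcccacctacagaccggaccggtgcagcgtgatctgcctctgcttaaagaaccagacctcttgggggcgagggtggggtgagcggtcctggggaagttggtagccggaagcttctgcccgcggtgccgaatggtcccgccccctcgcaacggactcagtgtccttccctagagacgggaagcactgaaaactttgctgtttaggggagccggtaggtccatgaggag
Fam183b (chr11:58801911-58802210, minus strand): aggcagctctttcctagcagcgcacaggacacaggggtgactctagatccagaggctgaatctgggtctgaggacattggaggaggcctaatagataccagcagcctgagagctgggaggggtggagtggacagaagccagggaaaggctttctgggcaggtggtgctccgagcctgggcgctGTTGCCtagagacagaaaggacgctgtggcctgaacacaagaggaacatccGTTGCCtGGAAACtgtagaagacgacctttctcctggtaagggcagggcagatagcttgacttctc
Ccdc153 (chr9:44240427-44240726, plus strand): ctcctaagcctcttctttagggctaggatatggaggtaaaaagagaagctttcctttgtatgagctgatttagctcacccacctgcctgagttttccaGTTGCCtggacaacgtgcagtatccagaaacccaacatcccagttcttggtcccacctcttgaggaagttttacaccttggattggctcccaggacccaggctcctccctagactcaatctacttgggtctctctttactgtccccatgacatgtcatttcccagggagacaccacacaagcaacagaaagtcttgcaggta
Tmem212 (chr3:27896319-27896618, minus strand): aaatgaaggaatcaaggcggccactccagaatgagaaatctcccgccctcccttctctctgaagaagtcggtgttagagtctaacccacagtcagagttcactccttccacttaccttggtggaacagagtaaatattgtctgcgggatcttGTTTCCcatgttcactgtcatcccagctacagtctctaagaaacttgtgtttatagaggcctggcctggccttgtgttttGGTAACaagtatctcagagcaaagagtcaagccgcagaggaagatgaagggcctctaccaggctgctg
Dynlrb2 (chr8:116504765-116505064, plus strand): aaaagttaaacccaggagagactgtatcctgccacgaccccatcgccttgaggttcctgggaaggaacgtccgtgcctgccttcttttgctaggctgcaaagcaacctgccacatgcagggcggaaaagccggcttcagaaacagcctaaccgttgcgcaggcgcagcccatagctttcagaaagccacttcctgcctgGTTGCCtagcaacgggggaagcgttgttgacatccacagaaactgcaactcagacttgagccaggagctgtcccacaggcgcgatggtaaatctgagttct

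GTTNCC or its reverse complement GGNAAC matched 0 times in the Dnah1 window, 3 times in Fam183b, 1 time in Ccdc153, 2 times in Tmem212 and 1 time in Dynlrb2. Of 32851 promoters in the same table, 45.3% held at least 1 such match, so a match is common. The form GTTGCC, singled out after the sequences were seen, stood in the windows of Fam183b, Ccdc153 and Dynlrb2 and in 12.5% of all promoters. The forkhead motif (3.65% of all promoters) had 0 matches in the 5 windows. The palindromic X-box was searched only in 1 form, with a fixed pair of bases between the arms. That form (0.128% of all promoters) had 0 matches in the 5 windows. Arms with other spacing were not searched for. In the Fam183b window an arm and its reverse complement stand 1 base apart, which the searched form leaves out. These are letter matches in a short window and say nothing on binding.

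Dnah1 (ENSMUSG00000019027, chromosome 14, 31260375 to 31323896, minus strand, mm10), an inner-arm heavy chain, was measured at 10.4, 11.2, 12.8, 10.03, 12.8 and 13.0 CPM in MI 1 to MI 6, and at 16.6, 17.0, 18.5, 15.3, 12.4 and 17.3 CPM in Sham 1 to Sham 6. Sham 5 lay among the MI libraries and the other 5 Sham libraries lay above all 6 MI libraries. The mean was 11.7 ± 1.30 CPM in MI and 16.2 ± 2.11 CPM in Sham (SD, n = 6 each). The log2 fold change was -0.46 (SE 0.10). The authors' deposited table of lower genes lists Dnah1 with a log2 fold change of -0.28 and an adjusted p-value of 0.021, with values of 8.503 to 8.786 in MI and 8.788 to 9.097 in Sham on their log2 scale. Dnah1 is the only one of the 7 genes in the authors' deposited tables. In the Y set Dnah1 averaged 11.1 ± 1.47 CPM in MI and 17.4 ± 0.974 CPM in Sham, and in the Xist set 12.3 ± 0.964 CPM in MI and 14.99 ± 2.44 CPM in Sham (SD, n = 3 each). Exons of Dnah1 share 551 bases with the antisense gene Gm35823, and since no source used here says whether strand entered the counting, reads of both genes cannot be told apart there.

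**Figure D1:**
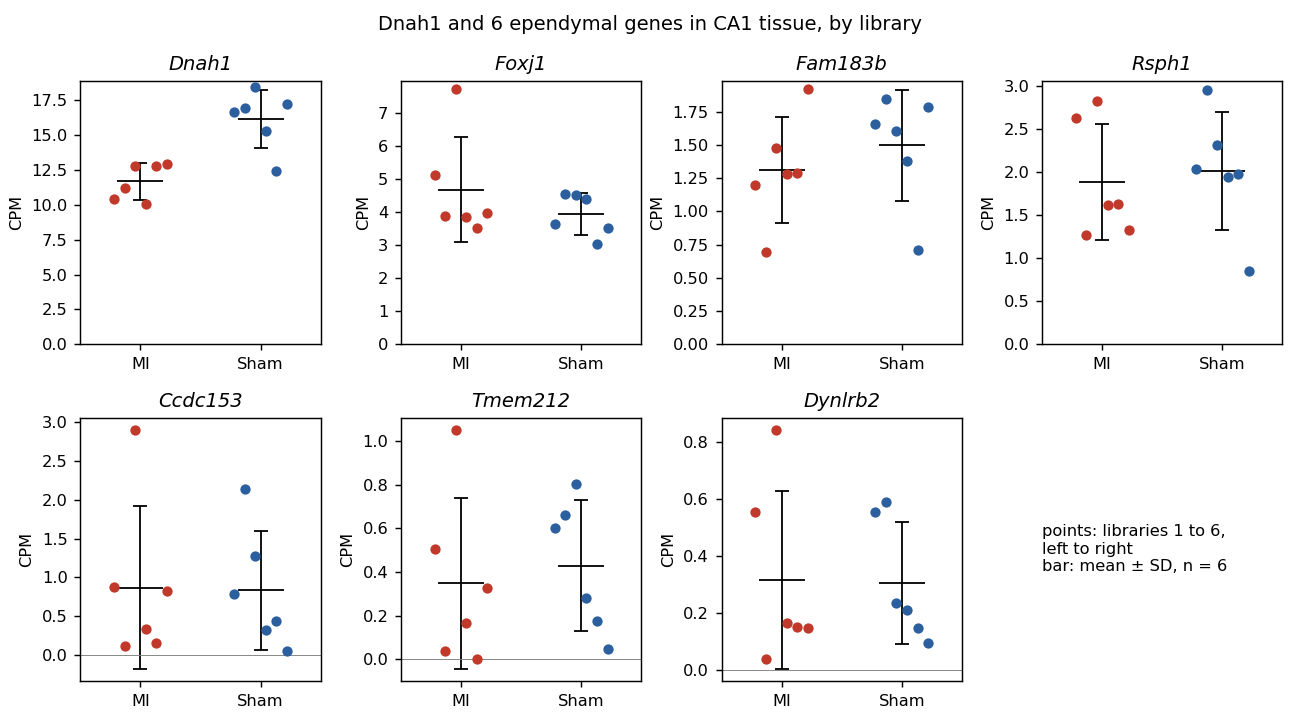
CPM (y axis, linear, from 0 or just below) of Dnah1 and the 6 ependymal genes in the MI and Sham libraries, with points for libraries 1 to 6 from left to right and bars for mean ± SD (n = 6). Dnah1 is the gene with little overlap between the groups, with Sham 5 at 12.4 CPM among the MI libraries, while MI 3 is the highest MI library for Foxj1, Ccdc153, Tmem212, Rsph1 and Dynlrb2.

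Foxj1 (ENSMUSG00000034227, chromosome 11, 116330704 to 116335399, minus strand), the regulator of motile ciliogenesis, had 5.12, 3.89, 7.75, 3.85, 3.53 and 3.99 CPM in MI 1 to MI 6, against 3.64, 4.57, 4.53, 4.42, 3.03 and 3.53 CPM in Sham 1 to Sham 6. MI 3 stood highest and the groups overlapped, with a log2 fold change of 0.24 (SE 0.19). Rsph1 (ENSMUSG00000024033, chromosome 17, 31255019 to 31277383, minus strand), a protein of the radial spoke head, had 2.63, 1.27, 2.82, 1.62, 1.63 and 1.33 CPM in MI 1 to MI 6, against 2.03, 2.95, 2.31, 1.94, 1.97 and 0.846 CPM in Sham 1 to Sham 6. Its lowest library was Sham 6 and its log2 fold change was -0.11 (SE 0.27).

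Dynlrb2 (ENSMUSG00000034467, chromosome 8, 116504974 to 116515915, plus strand), a roadblock-type light chain of dynein, had 0.554, 0.039, 0.842, 0.166, 0.152 and 0.148 CPM in MI 1 to MI 6, against 0.553, 0.590, 0.236, 0.212, 0.147 and 0.094 CPM in Sham 1 to Sham 6. MI 1, MI 3, Sham 1 and Sham 2 were its 4 high libraries, and counts ran from 1 to 20. Its close relative Dynlrb1, which serves cytoplasmic dynein in most cells, had 100.3 ± 6.86 CPM in MI and 93.4 ± 7.24 CPM in Sham (SD, n = 6 each).

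Ccdc153 (ENSMUSG00000070306, chromosome 9, 44240676 to 44247306, plus strand), a coiled-coil gene used as an ependymal marker, varied most of the 7 genes, with 0.876, 0.116, 2.91, 0.332, 0.152 and 0.827 CPM in MI 1 to MI 6 and 0.784, 2.14, 1.28, 0.318, 0.442 and 0.047 CPM in Sham 1 to Sham 6. Its counts ran from 1 to 69. Tmem212 (ENSMUSG00000043164, chromosome 3, 27866066 to 27896368, minus strand), a membrane protein gene used in the same way, had 0.507, 0.039, 1.05, 0.166, 0 and 0.325 CPM in MI 1 to MI 6 and 0.600, 0.664, 0.803, 0.283, 0.177 and 0.047 CPM in Sham 1 to Sham 6. For both genes MI 3 was the highest MI library and Sham 6 the lowest Sham library. Fam183b (ENSMUSG00000049154, chromosome 11, 58792797 to 58801960, minus strand), a cilium-associated gene, had 1.199, 0.693, 1.47, 1.28, 1.29 and 1.92 CPM in MI 1 to MI 6 and 1.66, 1.84, 1.61, 1.38, 0.707 and 1.79 CPM in Sham 1 to Sham 6. Its low libraries were MI 2 and Sham 5. MI 2 was also the lowest MI library for Ccdc153, Rsph1 and Dynlrb2, and Sham 5 the lowest Sham library for Foxj1. The highest MI library of Fam183b was MI 6, whereas that of the other ependymal genes was MI 3.

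The log2 fold changes of the remaining genes were small beside their errors, at 0.04 (SE 0.77) for Ccdc153 and -0.17 (SE 0.25) for Fam183b. Tmem212 and Dynlrb2 did not pass the filter on low counts that the other 5 genes passed, and without that filter their values were -0.29 (SE 0.79) and 0.01 (SE 0.63). Per kilobase of exon, the mean level over the 12 libraries was 2.48 CPM for Fam183b, 1.65 for Foxj1, 1.42 for Rsph1, 1.07 for Dnah1, 0.559 for Dynlrb2, 0.543 for Tmem212 and 0.418 for Ccdc153. Neighbours in that order overlapped in their library values, and the order is a description.

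The spread of log2 CPM between libraries within a group was 0.18 (SD) for Dnah1, 0.34 for Foxj1, 0.47 for Fam183b, 0.53 for Rsph1, 0.96 for Dynlrb2, 1.28 for Tmem212 and 1.48 for Ccdc153. Of the 6 ependymal genes, 5 went together across libraries within the groups. With the group means removed from log2 CPM, Pearson's r was 0.94 between Ccdc153 and Tmem212, 0.85 between Ccdc153 and Rsph1, 0.84 between Ccdc153 and Dynlrb2 and 0.83 between Rsph1 and Dynlrb2. Foxj1 had r of 0.65 to 0.78 with these 4 genes. Fam183b had r of 0.05 to 0.42 with the other 5. These values, over 12 libraries that share depth and dissection among all genes, describe the set and were not tested.

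Dnah1 was compared with each of the 6 genes in the same group-centred values, by permutation of Dnah1 within the groups (two-sided, 6 relations). The largest Pearson's r was with Fam183b, 0.73 (permutation p = 0.0247, Benjamini-Hochberg adjusted p = 0.148), with Spearman's rho of 0.71 (permutation p = 0.0181, adjusted p = 0.108). It was 0.46 within MI (exact p = 0.403) and 0.93 within Sham (exact p = 0.025, adjusted p = 0.15). Without MI 2 and Sham 5, the libraries farthest from the median of Fam183b, r was 0.63 (permutation p = 0.0864). Without Sham 5 alone r was 0.47 (adjusted permutation p = 0.927) and rho was 0.67 (adjusted permutation p = 0.345), so Pearson's r depended on Sham 5 more than rho did. Both genes, and Foxj1 as well, were at their lowest Sham value in Sham 5. Without MI 2 alone r was 0.83 (adjusted permutation p = 0.0227). The r of Fam183b exceeded that of 99.74% of the 16828 other genes with Dnah1.

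With the other 5 ependymal genes Dnah1 showed r of 0.35 for Foxj1, 0.23 for Ccdc153, 0.20 for Tmem212, 0.17 for Dynlrb2 and -0.05 for Rsph1, with adjusted permutation p from 0.714 to 0.865. Spearman's rho was 0.34, 0.24, 0.21, 0.08 and 0.03 for the same genes, with adjusted permutation p from 0.802 to 0.942. Without the libraries farthest from the median of each gene, r was 0.51 for Foxj1, 0.33 for Ccdc153, 0.44 for Tmem212, -0.03 for Dynlrb2 and 0.09 for Rsph1. With 12 libraries, r of this size was not told apart from 0, which does not show that there is no relation.

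**Figure D2:**
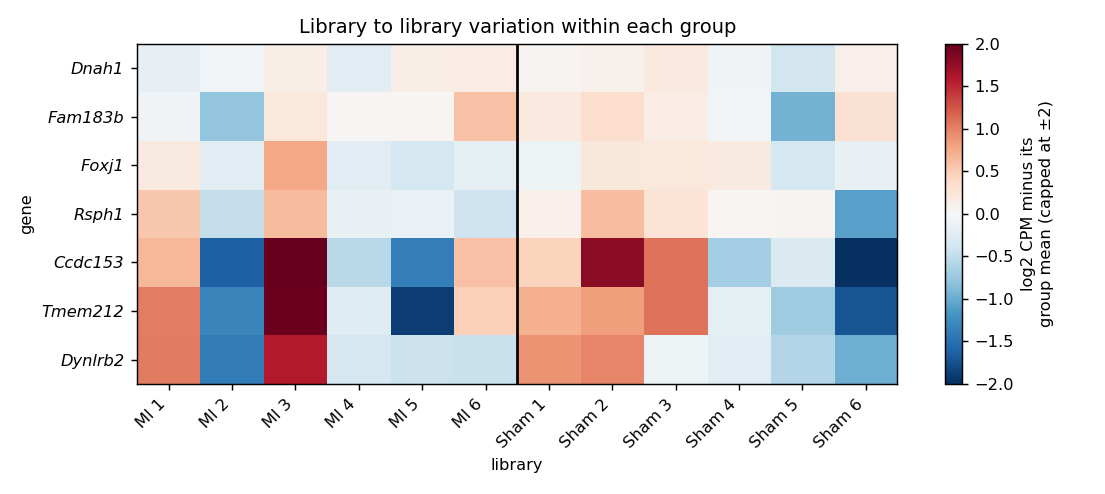
Log2 CPM minus the group mean for the 7 genes (rows) in each library (columns), red above and blue below the mean of its own group. Ccdc153, Tmem212 and Dynlrb2 share high values in MI 3 and Sham 2 and low values in MI 2 and Sham 6, while Dnah1 varies little and is lowest in Sham 5.

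**Figure D3:**
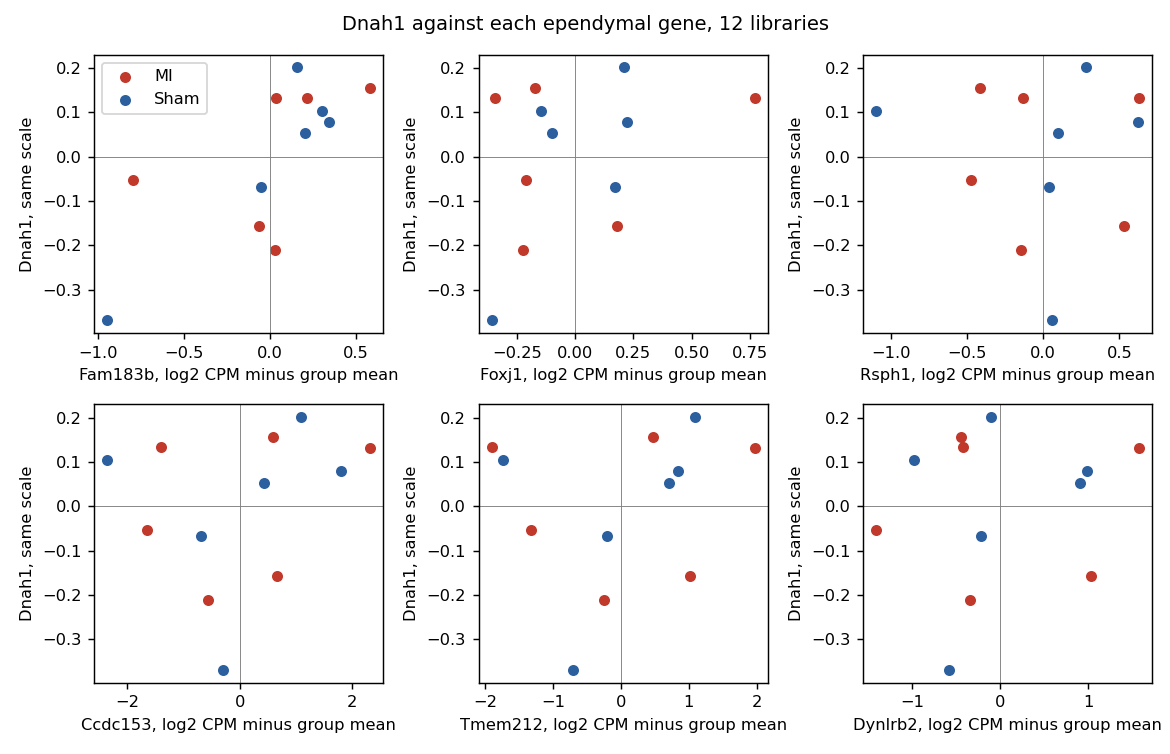
Dnah1 (y axis) against each ependymal gene (x axis), both as log2 CPM minus the group mean, 1 point per library, MI red and Sham blue. The relation with Fam183b (r 0.73) includes Sham 5 at the lower left, and the other 5 panels show no clear slope.

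The ependymal level of a library was summarised as the mean log2 CPM of the 6 genes, centred on 0. It was 0.50, -1.04, 1.18, -0.31, -0.76 and 0.04 in MI 1 to MI 6, and 0.44, 0.87, 0.52, -0.09, -0.41 and -0.93 in Sham 1 to Sham 6. MI 3 and Sham 2 stood highest, MI 2 and Sham 6 lowest, and the groups overlapped throughout. The level was above 0 in 5 of the 6 libraries of the Y set and in 1 of the 6 of the Xist set. The slope of Dnah1 on this level, with group in the model, was 0.06 log2 units per log2 unit (SE 0.07, 95% interval -0.10 to 0.22). Its edgeR quasi-likelihood adjusted p was 0.632 (Benjamini-Hochberg over 16829 genes). The 4 genes of the level that passed the filter stayed in this adjustment, which can lower the adjusted p of other genes. The slope was 0.20 in the Y set alone and -0.0064 in the Xist set alone.

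Of the other 14 heavy chains of axonemal dynein, 3 rose with the ependymal level. Dnah11, an outer-arm chain, had 0.646, 0.116, 1.43, 0.124, 0.152 and 0.591 CPM in MI 1 to MI 6, against 1.199, 1.55, 1.04, 0.672, 0.501 and 0.235 CPM in Sham 1 to Sham 6. It was high where the ependymal genes were high, in MI 3 and Sham 2. Its slope was 1.54 (SE 0.16, edgeR quasi-likelihood adjusted p = 0.0031). Dnah12, an inner-arm chain, had a slope of 1.31 (SE 0.17, edgeR adjusted p = 0.0103), and Dnah10, another inner-arm chain, had 0.66 (SE 0.13, edgeR adjusted p = 0.0474). When each library was left out in turn, Dnah11 passed in 12 of 12 fits, Dnah12 in 9 and Dnah10 in 2, all in edgeR. DESeq2 called Dnah10 (adjusted p = 0.00107) and gave Dnah11 and Dnah12 slopes of 1.55 (SE 0.23) and 1.31 (SE 0.22) without an adjusted p, as for 15 of the 69 axoneme genes, so it made no call on them. The slopes of the other 11 chains ran from -0.34 for Dnah9 to 0.69 for Dnah3, and none of the 11 passed in edgeR, while DESeq2 called Dnah6 (slope 0.58, adjusted p = 0.00616). With choroid plexus markers as a covariate in edgeR, Dnah3, Dnah6 and Dnah14 passed as well. Dnah7a, Dnah7b and Dnah7c share 40.3% to 48.5% of their 50-base stretches with other genes, mainly each other, so their counts are uncertain. Exons of Dnah11 share 642 bases with Cdca7l and those of Dnah3 1506 bases with Lyrm1 on the opposite strand, where reads likewise cannot be told apart.

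The difference in slope between Dnah1 and each of the other 14 chains was tested by permuting the ependymal level within groups, on least-squares slopes of log2 CPM, a comparison added after the data were seen. Dnah1 minus Dnah11 was -1.30 (95% interval -1.61 to -0.99, adjusted permutation p = 0.00014, from a raw p of 1e-05 that is the smallest the draws can give). Dnah1 minus Dnah12 was -1.07 (adjusted permutation p = 0.00252), Dnah1 minus Dnah10 -0.55 (0.00462), Dnah1 minus Dnah6 -0.53 (0.00542) and Dnah1 minus Dnah3 -0.52 (0.0179). For the other 9 chains the adjusted permutation p ran from 0.0515 to 0.438. A slope depends on the spread of a gene as well as on how closely it goes with the level. The within-group SD of log2 CPM was 0.18 for Dnah1 and 1.07 for Dnah11. The differences therefore do not show by themselves that Dnah1 follows the level less closely. Group-centred r with the level was 0.26 for Dnah1, and ran from -0.44 (Dnah9) to 0.96 (Dnah11) in the other 14. Per kilobase of exon Dnah1, at 1.07 CPM, was the second most abundant chain after Dnah9 at 1.98 CPM, while Dnah11 and Dnah12 stood at 0.048 and 0.062 CPM.

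**Figure D4:**
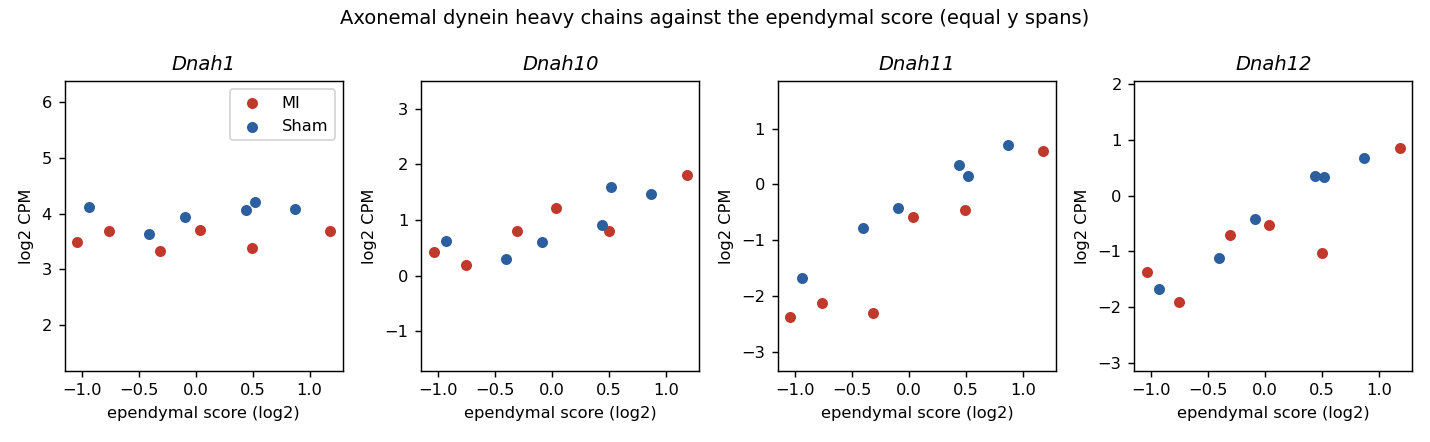
Log2 CPM (y axis, equal spans) of Dnah1, Dnah10, Dnah11 and Dnah12 against the ependymal level (x axis, log2), 1 point per library, MI red and Sham blue. Dnah11 and Dnah12 climb with the level and Dnah1 stays flat within each group, the MI points below most Sham points.

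**Figure D5:**
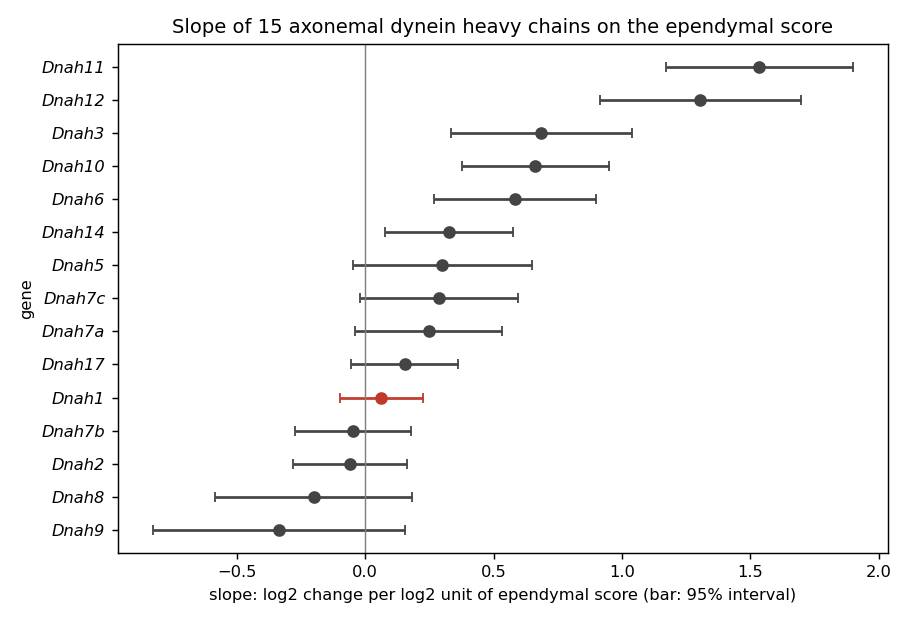
Slope (x axis, log2 change per log2 unit of the ependymal level) of 15 heavy chains of axonemal dynein, with 95% intervals as bars and Dnah1 in red. Dnah11 (1.54) and Dnah12 (1.31) lie at the top, and the interval of Dnah1 (0.06) spans 0.

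Across the wider axoneme, 86 further genes of dynein arms, spokes, rulers, assembly factors and microtubule inner proteins were in the files and 69 passed the filter. Of these, 4 had a slope past the threshold in edgeR's quasi-likelihood test, all positive, where 0.143% of all genes were called positive, 0.321% negative and 0.464% in either direction. The 4 genes called by edgeR were Dnah10, Dnah11, Dnah12 and Dnali1, a light chain of the inner arms, with a slope of 0.93 (SE 0.18, edgeR adjusted p = 0.0486). Dnah10 and Dnali1 lay close to the threshold, and an adjustment without the genes of the level was not run. DESeq2 called 10 of the 69, all positive, where it called 3.1% of all genes positive and 7.13% in either direction. It gave no adjusted p to 15 of the 69 and to 2610 of the 16825 genes over all, which could therefore not be called. Dnah10 is the 1 gene on both lists, and Dnah11, Dnah12 and Dnali1 were among those without an adjusted p. The DESeq2 slope of Dnali1 was 0.92 (SE 0.23). The edgeR count was 1 without MI 3, without Sham 2 or without Sham 6, and 2 without any one of MI 1, MI 2, MI 4, MI 5, Sham 3, Sham 4 and Sham 5. It was 0 with the dentate granule markers as a covariate and 1 with the sex-linked set as a covariate. Positive slopes were seen in 54 of the 69, against 50.5% of all genes, with a median of 0.14 against 0.00. At an unadjusted p under 0.05 in edgeR 28 of the 69 were positive and 1 negative, where 10.8% of all genes were positive, and 22.3% passed in either direction. By role, slopes were positive in 10 of 14 heavy chains, 5 of 6 intermediate and light chains, 9 of 13 spoke and central pair genes, 13 of 13 docking, ruler and nexin genes, 5 of 7 assembly factors and 12 of 16 microtubule inner proteins.

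Of the 10 further ependymal markers, 6 passed the filter and 6 of 6 had positive slopes (50.5% of all genes). Ak7, an adenylate kinase of motile cilia, passed the threshold with 1.49 (SE 0.20, edgeR quasi-likelihood adjusted p = 0.0108), and Enkur had 0.61 (SE 0.19) and Tekt1, a tektin, 0.28 (SE 0.13) without passing in edgeR. DESeq2 called Enkur (adjusted p = 0.0211) and gave Ak7 no adjusted p. Intraflagellar transport genes, which build cilia of every kind, had 0 of 18 called by edgeR and a median slope of 0.04. Cytoplasmic dynein had 0 of 11 called by edgeR. DESeq2 called 3 of them, Dync1i1 and Dynlrb1 with positive slopes and Dync2h1 with a negative one, where it called 7.13% of all genes. Regulators of multiciliated cells had 0 of 10 called by edgeR, and 2 of 10 had positive slopes (50.5% of all genes). At 0.464% called over all genes by edgeR, 0 edgeR calls in lists of this size is no result about them. Rfx3, a factor that binds the X-box, had a slope of -0.48 (SE 0.17, edgeR quasi-likelihood adjusted p = 0.14). The regulators summed to 218.3 to 274.4 CPM in MI and 243.2 to 426.7 CPM in Sham. Their maximum was in Sham 6, where the ependymal level was lowest of Sham.

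In MI against Sham, edgeR's quasi-likelihood test called 0 of the 69 axoneme genes, as it called 0% of the 16829 genes tested, and 7.55% of all genes had an unadjusted p under 0.05. DESeq2 called 0.0595% of all genes. At an unadjusted p under 0.05 in edgeR, 2 of the 69 were higher and 3 lower in MI, where 3.95% of all genes were higher and 3.59% lower. The log2 fold change was negative in 47 of 69 (52.4% of all genes), with a median of -0.10 against -0.01 for all genes. Dnah5, an outer-arm chain, had 7.55 ± 1.12 CPM in MI and 10.8 ± 3.73 CPM in Sham (SD, n = 6 each). Its log2 fold change was -0.52 (SE 0.22). Dnah9 had 36.5 ± 7.68 CPM in MI and 26.7 ± 12.4 CPM in Sham, with a log2 fold change of 0.45 (SE 0.31). In the authors' deposited tables other axoneme genes stand on either side. Among the 517 lower genes were 3, Hydin at -0.28, Ccdc114 at -0.13 and Drc1 at -0.11. Among the 542 higher genes were 2, Tcte1 at 0.18 and Dnaaf2 at 0.12.

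Markers of tissue next to CA1 also differed between libraries. Dentate granule markers summed to 124.8 to 407.3 CPM in MI and 157.1 to 969.4 CPM in Sham, with the maximum in Sham 6, where the ependymal level was lowest of Sham. Of these 8 markers 7 had negative slopes on the ependymal level in edgeR, 6 of them at an unadjusted p under 0.05 (11.5% of all genes). EdgeR called 0 of the 8. DESeq2 called C1ql2 (adjusted p = 0.0131), Prox1 (0.0180) and Lct (0.0490), all with negative slopes, where it called 7.13% of all genes. With the dentate markers as a covariate the slope of Dnah1 was 0.15 (SE 0.10). Choroid plexus markers summed to 27.4 to 41.9 CPM in MI and 16.9 to 49.1 CPM in Sham, 7 of 14 passed the filter, and 0 were at 0 in every library. With them as a covariate the slope of Dnah1 was 0.07 (SE 0.07). Meningeal and fibroblast markers summed to 43.6 to 130.8 CPM in MI and 54.4 to 300.6 CPM in Sham. Their log2 fold change was negative in 9 of 9 (52.4% of all genes), with a median of -0.85. In edgeR 4 of them were lower at an unadjusted p under 0.05 (3.59% of all genes). Oligodendrocyte and myelin markers summed to 4768 to 6032 CPM in MI and 2558 to 5256 CPM in Sham, with 8 of 8 at a positive log2 fold change and an unadjusted p under 0.05 (3.95% of all genes) and a median of 0.51. In edgeR 0 of the meningeal and 0 of the oligodendrocyte markers were called, and their part in the Dnah1 difference was not tested.

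The genes most like Dnah1 across the 12 libraries, by group-centred r among genes with a mean of at least 50 counts, were Rpia (0.86), Zfp862-ps (0.85), Gm14137 (0.85), Slc19a1 (0.84) and Zc3h3 (0.84). Those most unlike it were Tmem98 (-0.89), Mrpl39 (-0.88), Eif4enif1 (-0.86), Npr1 (-0.85) and Ywhaq (-0.83). None of the 10 is in the cilium lists. Of all genes, 9.67% had r of at least 0.5 in size with Dnah1, so with 12 libraries such values are frequent.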

How the data were processed

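For each of the 12 libraries the authors deposited raw counts of reads per Ensembl gene, as whole numbers. The submitters' processing notes name FastQC 0.11.5, STAR 2.5.2b, featureCounts, Subread 1.5.1 and mm10, with no settings. The authors also deposited tables of higher and lower genes with log2 values per library, a log2 fold change and an adjusted p-value, and no source used here says how these were made.

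Symbols came from GENCODE M21 for 48349 of 48709 IDs. Counts were filtered with filterByExpr (16829 genes), scaled by TMM and tested two-sided with edgeR 4.0.16 under R 4.3.3 (robust quasi-likelihood F test), calling genes at a Benjamini-Hochberg adjusted p under 0.05. CPM values are on TMM-scaled library sizes, with a prior count of 2 for log2 CPM. The slope fit had group and the ependymal level as terms, and the 6 genes of the level were left out of its counts. The 4 of them that passed the filter stayed in the adjustment of p-values. Slope intervals use 9 residual degrees of freedom. Correlations used 100000 permutations within groups, or all 720 orders within 1 group (Python 3.11.15, scipy 1.17.1). The members, gene lists and tests were chosen with earlier results of these data known. Genes were named by rule: the 7 members, every axonemal dynein heavy chain, Dynlrb1, the 3 most abundant genes per length of each list (those that bear on the text are printed), the 5 genes most and least like Dnah1, the 5 smallest p of the slope, and called cilium genes where 5 or fewer. The 5 smallest p were taken among genes with an ordinary symbol, without Gm, Rik and clone-like names. Genes named from the authors' deposited tables or as DESeq2 calls were chosen after their values were seen.

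Alternatives were DESeq2 1.42.0, other scalings and filters, the replicate number as a block, sex-linked sets, marker covariates, other scores, and each library left out. The pipeline was tested on simulated data. No pair of libraries within a group was a duplicate, with a chi-square per degree of freedom of 6.22 to 78.2 over 30 pairs. Counts limit precision for low genes such as Tmem212 and Dynlrb2.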

Additional observations from a re-analysis of the deposited data

Results flagged for a closer look

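Among the 14 sets of 6 libraries examined (7 genes in each group), a single library stood far from the rest of its group in 2. Fam183b had a log2 CPM of -0.35 in Sham 5, where the nearest other Sham library had 0.54, a gap of 0.691 of the range of the group. Rsph1 had -0.11 in Sham 6, where the nearest other Sham library had 1.02, a gap of 0.66 of the range. Chance alone marks about 1 in 20 such groups. Sham 5 is also the Sham library with the lowest Dnah1, and Sham 6 the one with the highest dentate granule markers.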

How the results depend on the processing

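The slope of Dnah1 on the ependymal level stayed short of the threshold in all 31 alternatives, from -0.0064 to 0.20. The counts of called slopes were unstable. The count over all genes, 78, became 1199 with DESeq2, 31 with library totals only, 158 without a filter, 12 with at least 50 counts in 6 libraries, 2 without Sham 1 and Sham 6, 1 with the sex-linked set as a covariate, 1135 with the choroid plexus covariate and 22 without the group term. It became 20 with the 4 genes that passed the filter as the level and 343 with Ccdc153, Tmem212, Rsph1 and Dynlrb2. It became 0 in either sex-linked set alone, with Foxj1 alone, with the dentate covariate and without the highest and lowest ependymal library. With 1 library left out it ran from 1 to 154. The axoneme count, 4, became 10 with DESeq2, 17 with the choroid plexus covariate, 2 with library totals, without the group term or with the 4 passing genes, and 1 without Sham 1 and Sham 6 or with the sex-linked covariate. It became 0 with the stricter filter, in either set alone, with Foxj1 alone, with the dentate covariate and without the highest and lowest library, and ran from 1 to 5 with 1 library left out. The cause was not tested. With the replicate number as a block, called slopes were 0 over all genes and 0 of the axoneme genes, the Dnah1 slope was 0.02 and r with Fam183b 0.77 (adjusted permutation p = 0.0906). Same-numbered libraries correlated at -0.35 to 0.40, and 3 of 6 matched their own number best. The lowest values, -0.35 for number 2 and -0.32 for number 4, came from libraries of unlike sex-linked set. These values do not settle whether the numbers pair the libraries. The MI against Sham count, 0, became 10 with DESeq2 and 211 in the Y set alone. The Dnah1 fold change was -0.65 in the Y set and -0.28 in the Xist set. A fit of group by set put the difference at -0.37 (SE 0.18), given as a description without a p-value. With 1 library left out, r of Dnah1 with Fam183b ran from 0.47 to 0.83. Depth limits Ccdc153, Tmem212 and Dynlrb2, which had as few as 0 or 1 counts in a library.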

Other observations

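Outside the cilium lists, the 5 genes with the smallest edgeR p for the slope on the ependymal level all had negative slopes. They were picked among genes averaging 50 counts or more with an ordinary symbol, so Gm, Rik and clone-like names were left out. They were the cell cycle regulator Rb1 (-0.27, SE 0.03), the receptor gene Lrp4 (-0.27, SE 0.03), the matrix gene Hapln1 (-0.25, SE 0.03), the tight junction gene Tjp1 (-0.22, SE 0.03) and Prex2 (-0.46, SE 0.07). Astrocyte markers had 0 of 7 positive slopes and microglial markers 0 of 5, none of them called by edgeR, where 50.5% of all genes had a positive slope. Pan-neuronal markers had 4 of 5 positive slopes.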
